A study of Mus musculus with 5 samples.

Results

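The genes described here are Dux, Tmem92, 5 Usp17l copies and 2 Tdpoz copies, genes whose RNA marks the 2-cell mouse embryo. They were chosen by name and by their summed counts: symbols equal to Dux or Tmem92, or starting with Usp17l or Tdpoz, with at least 10 counts over the libraries. Of 11 symbols with such names, 9 met that minimum, out of 10855 symbols in the table. The summed counts ran from 19 for Tdpoz4, the member nearest the limit, to 225 for Usp17lb. The 2 symbols outside it, Tdpoz1 and Tdpoz2, had 1 count each.

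Polyadenylated RNA of mouse embryonic stem cells, cultured cells of the early embryo, was sequenced in 5 libraries. The wildtype group held 3 libraries (wildtype 1 to 3), and the deleted group held 2 libraries of cells lacking the −45 super-enhancer (deleted 1 and 2), a dense enhancer cluster named for its place relative to the pluripotency gene Nanog. Cells were treated for 6 days with ethanol or 4-hydroxytamoxifen, and the labels do not say which library had which. They give no line, clone or culture, so every p-value rests on library-to-library spread that may be technical. By the design text each condition had 3 replicates, of which 1 deleted library is not analysed here. The comparison asks how RNA levels differ where this super-enhancer is deleted.

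Dux encodes a transcription factor with a pair of homeodomains that is switched on as the zygotic genome becomes active. It binds and activates genes of the 2-cell stage, the Zscan4 and Usp17l families among them, and a small, changing share of cultured embryonic stem cells passes through a state with this RNA profile. Usp17l genes encode deubiquitinases, enzymes that take ubiquitin off proteins, and were first described as cytokine-inducible genes of blood cells. Tdpoz genes encode proteins with a TRAF-like and a POZ domain, the pairing found in SPOP, an adaptor of cullin-3 ubiquitin ligases. Tmem92 encodes a small transmembrane protein whose RNA is used as a 2-cell marker.

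Usp17l copies are similar in sequence, which matters for how far a count can be given to 1 copy. The first 60 coding bases of each copy are shown for that reason, from GENCODE vM21 (GRCm38), 5′ to 3′. Capitals mark a base that differs, without gaps, from the commonest base of the 5 copies at that position.
Usp17la: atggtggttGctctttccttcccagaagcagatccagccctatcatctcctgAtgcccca
Usp17lb: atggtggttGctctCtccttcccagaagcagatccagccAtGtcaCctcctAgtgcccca
Usp17lc: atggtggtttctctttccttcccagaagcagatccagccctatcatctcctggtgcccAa
Usp17ld: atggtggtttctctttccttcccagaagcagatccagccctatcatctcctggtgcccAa
Usp17le: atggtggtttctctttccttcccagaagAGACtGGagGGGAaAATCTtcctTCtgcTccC

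In this stretch Usp17lc and Usp17ld were the same, Usp17lb differed from the commonest base at 6 positions and Usp17le at 19. Over whole coding sequences, aligned bases were 90.7% to 98.4% identical between copies, highest for Usp17lc and Usp17ld. Of the 50-base windows in the reference transcripts, 48.9% for Usp17ld and 55.3% for Usp17lc occurred in no other gene. For Usp17le, Usp17lb and Usp17la the shares were 70.2%, 78.6% and 79.9%. Single-copy values are therefore uncertain, most of all for Usp17lc and Usp17ld, and sums over the family are given beside them. Each copy also shared windows with Gm5053 and Usp17le-ps, and Usp17la with further genes such as Insr. The sums do not set that sharing aside.

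The Tdpoz copies differ more from each other. Their first 60 coding bases, from the same source and with capitals where the pair differs, are as follows.
Tdpoz3: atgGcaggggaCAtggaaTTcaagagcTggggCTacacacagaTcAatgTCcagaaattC
Tdpoz4: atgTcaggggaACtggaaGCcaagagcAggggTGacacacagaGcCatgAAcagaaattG

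They differed at 13 of these 60 positions and were 79.2% identical over aligned coding bases. Only 33.8% of Tdpoz3 windows and 58.8% of Tdpoz4 windows occurred in no other gene, since predicted genes and other Tdpoz copies share the rest. For Tmem92 the share was 98.1%. Dux, itself a member of a repeated family, was not matched to a reference gene by symbol and was not included in these comparisons.

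The upstream sequences of the Usp17l genes are shown because the copies were higher together in the deleted cells. Of the 9 genes, 5 matched a promoter in the RefSeq table (GRCm38.p6), namely Tdpoz4 and 4 Usp17l copies. The 250 bases before each annotated start follow, 5′ to 3′ along the gene, with the longest run shared by all 4 copies in capitals. They lie at chr7:104856766-104857015 on the plus strand (Usp17la), chr7:104842584-104842833 on the minus strand (Usp17lb), chr7:103416446-103416695 on the plus strand (Usp17lc) and chr7:103252506-103252755 on the minus strand (Usp17ld).
Usp17la: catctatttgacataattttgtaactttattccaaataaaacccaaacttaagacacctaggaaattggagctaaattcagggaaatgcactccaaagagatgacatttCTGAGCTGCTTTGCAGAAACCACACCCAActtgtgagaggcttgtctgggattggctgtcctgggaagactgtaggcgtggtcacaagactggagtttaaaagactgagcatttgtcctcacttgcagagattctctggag
Usp17lb: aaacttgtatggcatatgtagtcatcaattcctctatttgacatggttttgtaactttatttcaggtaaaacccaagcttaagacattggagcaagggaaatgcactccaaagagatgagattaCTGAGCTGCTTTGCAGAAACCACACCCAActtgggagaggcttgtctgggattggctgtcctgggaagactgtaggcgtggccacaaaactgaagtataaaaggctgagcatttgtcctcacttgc
Usp17lc: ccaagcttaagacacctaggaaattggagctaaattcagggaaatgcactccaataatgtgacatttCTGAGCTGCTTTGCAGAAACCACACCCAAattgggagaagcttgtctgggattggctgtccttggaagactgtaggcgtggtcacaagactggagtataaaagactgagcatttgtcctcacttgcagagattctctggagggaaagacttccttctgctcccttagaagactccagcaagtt
Usp17ld: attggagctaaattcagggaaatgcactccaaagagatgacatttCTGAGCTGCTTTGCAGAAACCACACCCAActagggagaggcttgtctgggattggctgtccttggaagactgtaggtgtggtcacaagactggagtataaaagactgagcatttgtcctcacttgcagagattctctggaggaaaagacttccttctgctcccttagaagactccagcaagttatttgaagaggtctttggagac

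The shared run is 29 bases long. It was picked as common to these 4 copies, so its presence in them is no result. On either strand it was in the same window of 4 of 32851 promoters, these 4, and in no other. The 120 bases from the start of the run were 94.2% to 96.7% identical between copies. The run ended 97 bases before the annotated start of Usp17lb, 112 before that of Usp17la, 154 before that of Usp17lc and 176 before that of Usp17ld, so the copies share the sequence more closely than the annotated start. The motif TATAAA, searched on both strands, was in 3 of the 4 windows, at 31 bases before the start in Usp17lb, 88 in Usp17lc and 110 in Usp17ld, and in 12.4% of all promoters. CCAAT was in all 4, in each on the other strand as ATTGG, against 33.8% of all promoters. Usp17lc also held it on the gene's own strand. The copies are so alike here that they do not count as 4 separate promoters. Whether these sequences bear on the levels was not tested. GATTNAATC, letters found within the motif known for mouse Dux, was in none of the 5 matched windows and in 0.247% of all promoters. Tdpoz4 held none of these motifs.

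Depth limits every value here. Libraries held 93574609 to 213042746 bin counts, wildtype 3 being the deepest, and the 9 genes together had 70, 67 and 133 counts in wildtype 1, 2 and 3 against 333 and 261 in deleted 1 and 2. A single count was worth 0.00463 to 0.0107 CPM, the counts per 1000000 of a TMM-normalised library size, and 3 counts 0.0139 to 0.0321 CPM. Rows under symbols held 0.328% to 0.375% of all counts, the rest standing under assembly IDs that the table does not pair with symbols, so part of a gene's reads may lie there. None of 12 listed markers of embryonic stem cells, such as Pou5f1 and Sox2, had a row under its symbol, so the labelled cell type was not checked, and neither was Nanog. Counting intervals below are exact Poisson intervals at 95% and cover counting error only.

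In the deleted cells, 8 of the 9 genes were called higher and none lower, when every gene with at least 10 counts over the libraries was tested (edgeR quasi-likelihood test, Benjamini-Hochberg adjusted p under 0.05 over 18101 genes). Of all genes tested that way, 16.9% were called higher. Under the filter used for the values below, edgeR's filterByExpr, 8 members were tested and 8 were higher, against 19.0% of tested symbols and 20.0% of all tested genes (39.7% of all tested genes were called in either direction). Of the 8, 6 were called higher with a fitted change over 4-fold, against 2.23% of tested symbols called higher with such a change. That filter can be met by the 2 deleted libraries alone, and only Usp17la, Usp17lb and Usp17le met it in at least 2 wildtype libraries, so the other 5 entered the test through their deleted levels. Both deleted libraries lay above all wildtype libraries in 9 of 9 members, where 28.2% of symbols with at least 10 counts and 32.8% of tested symbols did so. The members were chosen with the direction of these differences already known. In bulk RNA, more cells in the 2-cell-like state and more RNA per such cell cannot be told apart.

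**Figure D1:**
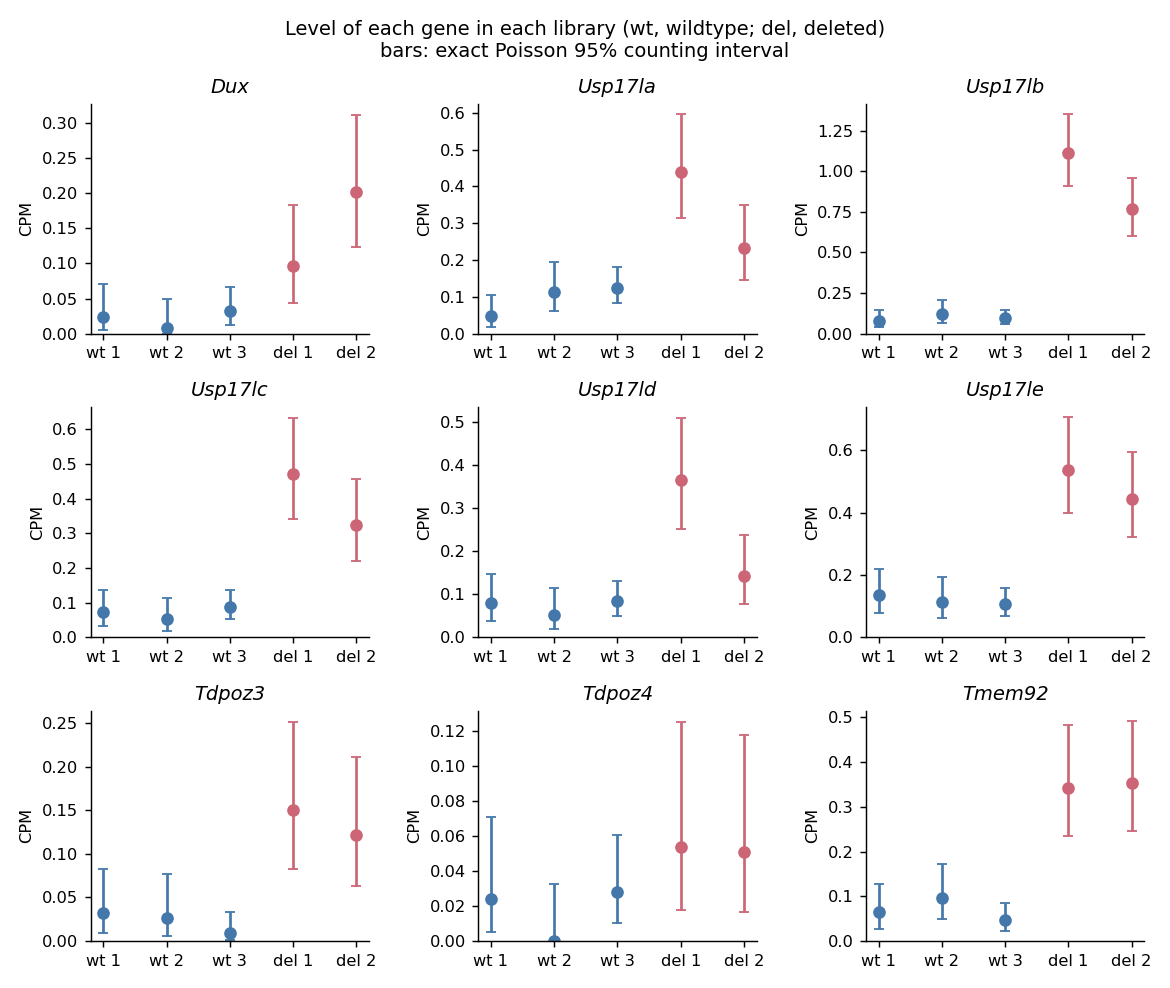
Level of each of the 9 genes in CPM (vertical axis) in each library (horizontal axis), wildtype in blue and deleted in red, with exact Poisson 95% counting intervals. Both red points lie above all blue points in each panel, and the intervals are widest relative to the level in Dux and the Tdpoz genes.

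Dux, the transcription factor of the set, was near the limit of detection in wildtype cells. It had 3, 1 and 7 counts in wildtype 1, 2 and 3, which are 0.0241, 0.00875 and 0.0324 CPM, and 9 and 20 counts in deleted 1 and 2, which are 0.0964 and 0.202 CPM. Both deleted libraries were above the wildtype ones, deleted 2 being the higher, and their counting intervals of 0.0441 to 0.183 CPM in deleted 1 and 0.123 to 0.312 CPM in deleted 2 overlapped. The means were 0.149 ± 0.0746 CPM (SD, n = 2) and 0.0218 ± 0.0120 CPM (SD, n = 3), giving a log2 fold change (± SE) of 2.60 ± 0.58 with adjusted p = 0.00703 by edgeR. Without deleted 2 the log2 fold change was 1.95 and the call ended (edgeR adjusted p = 0.114). The table has 1 bin for Dux, so the whole difference rests on 40 counts.

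Among the deubiquitinase genes, Usp17lb had the highest level in the deleted cells and the largest fitted change of the 9 genes. It had 10, 14 and 21 counts in wildtype 1, 2 and 3, which are 0.0804, 0.123 and 0.0972 CPM, and 104 and 76 counts in deleted 1 and 2, which are 1.11 and 0.767 CPM. The lower deleted library was 6.26 times the highest wildtype one. Its log2 fold change (± SE) was 3.23 ± 0.27 with adjusted p = 5.40e-05 by edgeR, and 3.23 also with the filter of at least 10 counts in every library.

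Usp17le stood at 0.137, 0.114 and 0.106 CPM in wildtype 1, 2 and 3 against 0.536 and 0.444 CPM in deleted 1 and 2. It was the only member over the filter level in each of the 5 libraries, and its wildtype values lay close together. It rose by a log2 fold change (± SE) of 2.05 ± 0.26 with adjusted p = 0.000373 by edgeR. Usp17lc stood at 0.0723, 0.0525 and 0.0879 CPM in wildtype against 0.472 and 0.323 CPM in deleted 1 and 2. It rose by 2.40 ± 0.33 on the log2 scale (SE; edgeR adjusted p = 0.000596).

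Of the Usp17l copies, Usp17la and Usp17ld differed most between the deleted libraries. Usp17la stood at 0.0482, 0.114 and 0.125 CPM in wildtype 1, 2 and 3 against 0.439 and 0.232 CPM in deleted 1 and 2, a log2 fold change (± SE) of 1.73 ± 0.42 with adjusted p = 0.0107 by edgeR. Usp17ld stood at 0.0804, 0.0525 and 0.0833 CPM in wildtype against 0.364 and 0.141 CPM in deleted 1 and 2, a log2 fold change (± SE) of 1.74 ± 0.46 with adjusted p = 0.0157 by edgeR. In both genes deleted 1 was the higher library, by 1.89 times in Usp17la and 2.58 times in Usp17ld. Without deleted 1 both calls ended, at log2 fold changes of 1.22 and 0.92 (edgeR adjusted p = 0.142 and 0.254). Both also ended with spike-in size factors, at 1.50 and 1.55 (edgeR adjusted p = 0.0711 and 0.0895), a scaling that moved the median of all genes by −0.24 on the log2 scale.

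Summed over the 5 copies, which sets aside how reads were divided among them, Usp17l had 52, 52 and 108 counts in wildtype 1, 2 and 3 against 273 and 189 in deleted 1 and 2. These are 0.418, 0.455 and 0.4998 CPM against 2.93 and 1.91 CPM, a fitted log2 fold change of 2.38 ± 0.20 (SE). The counting intervals of the deleted libraries, 2.59 to 3.29 CPM in deleted 1 and 1.65 to 2.20 CPM in deleted 2, did not overlap. Deleted 1 was higher than deleted 2 in each of the 5 copies, from 1.21 times in Usp17le to 2.58 times in Usp17ld.

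Usp17lb held a larger share of the family's counts in both deleted libraries than in any wildtype library. Usp17lb held 21.2% of 212 Usp17l counts in wildtype (exact binomial 95% interval 15.9% to 27.4%) and 39.0% of 462 in deleted cells (34.5% to 43.6%). These intervals pool the reads of a group as independent draws, so they cover counting error only and not the spread between libraries. By library its share was 19.2%, 26.9% and 19.4% in wildtype 1, 2 and 3 against 38.1% and 40.2% in deleted 1 and 2. The log2 ratio of Usp17lb to the other 4 copies was −1.85 ± 0.36 (SD, n = 3) in wildtype and −0.64 ± 0.091 (SD, n = 2) in deleted cells, with an exact two-sided permutation p = 0.1, the smallest that 3 against 2 libraries can give. This ratio was chosen after the values were seen. Usp17la held 21.7% of wildtype and 13.9% of deleted counts, Usp17ld 16.0% and 10.4%, and Usp17le 25.0% and 20.3%. Usp17lc held 16.0% and 16.5%.

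**Figure D2:**
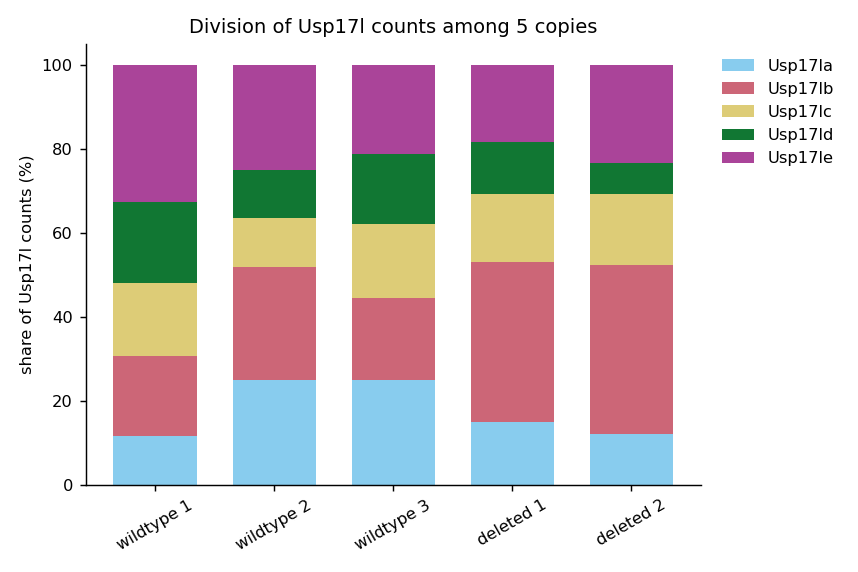
Share of all Usp17l counts (vertical axis, percent) held by each of 5 copies in each library. The Usp17lb segment covers 38.1% and 40.2% in the deleted libraries and 19.2% to 26.9% in the wildtype libraries.

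Levels of different genes need to be set per length, here as CPM per kilobase of GENCODE vM21 exons, an annotation that is not the one the authors counted on. The comparison stays rough. Exon bins of 1 gene can count the same read, and members have from 1 bin, as in Tdpoz3, to 8 in Tmem92. They also differ in the share of windows found in no other gene. In deleted cells Usp17lb was highest at 0.603 ± 0.157 (SD, n = 2), followed by Usp17le at 0.247 ± 0.0326. Usp17lc, Tmem92, Usp17ld, Usp17la and Tdpoz3 followed in that order between 0.162 and 0.123, each differing from the next by less than the larger SD of the pair. Tdpoz4 was lowest at 0.0467 ± 0.00198. In wildtype cells Usp17lb and Usp17le led at 0.0641 ± 0.0136 and 0.0599 ± 0.00793 (SD, n = 3), a difference smaller than their spread. Dux had no matched length.

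The Tdpoz genes, which pair a TRAF-like with a POZ domain, were the least counted with Dux. Tdpoz3 had 4, 3 and 2 counts in wildtype 1, 2 and 3, which are 0.0322, 0.0263 and 0.00926 CPM, and 14 and 12 counts in deleted 1 and 2, which are 0.150 and 0.121 CPM. It was higher at a log2 fold change (± SE) of 2.70 ± 0.56 with adjusted p = 0.00501 by edgeR, and omitting deleted 1 ended the call (2.54; adjusted p = 0.0511 by edgeR). Tdpoz4 had 3, 0 and 6 counts in wildtype 1, 2 and 3 against 5 in each deleted library. Its deleted levels of 0.0536 and 0.0505 CPM lay above the highest wildtype level of 0.0278 CPM, but the counting intervals overlapped. It did not pass filterByExpr, and among genes with at least 10 counts it had a log2 fold change (± SE) of 1.35 ± 0.81 with adjusted p = 0.236 by edgeR. Summed, the Tdpoz copies had 18 counts in wildtype and 36 in deleted cells, a fitted log2 fold change of 2.21 ± 0.42 (SE).

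Tmem92, the transmembrane protein gene, had the closest levels in the 2 deleted libraries of the 9 genes as a ratio (0.971). It had 8, 11 and 10 counts in wildtype 1, 2 and 3, which are 0.0643, 0.0963 and 0.0463 CPM, and 32 and 35 in deleted 1 and 2, which are 0.343 and 0.353 CPM. It rose by a log2 fold change (± SE) of 2.41 ± 0.34 with adjusted p = 0.000740 by edgeR, and the call held without each library in turn, at 2.10 to 2.69.

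**Figure D3:**
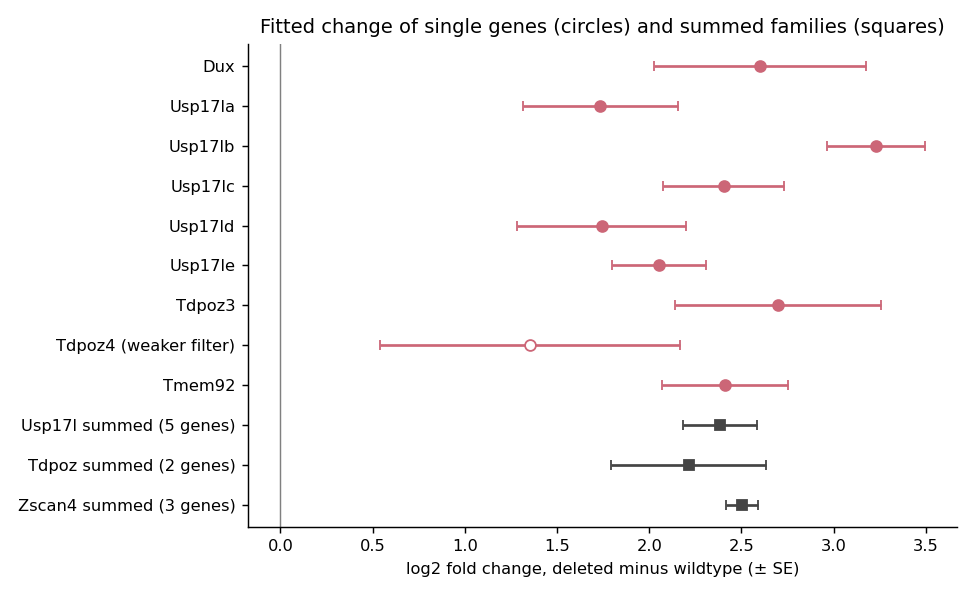
Fitted log2 fold change, deleted minus wildtype (horizontal axis), with its SE for each gene (circles) and for summed families (squares). The open circle is Tdpoz4, tested only with the weaker filter of 10 counts over the libraries. Usp17lb lies highest at 3.23, and Tdpoz4 lies lowest at 1.35.

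Bins, the parts of exons on which the authors counted, show how the counts are spread along the genes. The 9 genes have 23 bins, and the mean CPM was higher in deleted cells in 23 of 23, against 50.5% of all symbol bins with a count. In 18 of 23 both deleted libraries were above all wildtype ones, against 16.0% of such bins. In some of these the lowest deleted and the highest wildtype library both had 1 count. These were bins 5 and 7 of Tmem92, bin 2 of Usp17ld and bin 1 of Usp17lc. There the groups were parted only because 1 count is worth more CPM in the shallower deleted libraries. Bins of 1 gene can count the same read, so they are not independent. Tmem92 has 8 bins, and its groups did not overlap in 7 of them, in bins 5 and 7 only through that difference in depth. Bin 1 held 44.8% of its wildtype counts and 34.3% of its deleted counts. Bins 2 and 3 had 0 counts in each wildtype library and 2 and 4 counts in the deleted libraries together.

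The Usp17l counts lay mostly in 1 bin per copy. Bin 1 of Usp17lb held 91.1% of its wildtype and 90.0% of its deleted counts, and its bins 1 and 2 were 9.42 and 9.28 times higher in deleted cells, ratios that lay close together. In Usp17la, bin 3 was 4.18 times higher while bins 1 and 2 were 1.42 and 1.36 times higher on 6 and 13 counts, with overlapping groups. Bin 2 of Usp17la had 8 counts in wildtype 3 and at most 2 in any other library. With bin 3 alone Usp17la had a log2 fold change of 2.07 (edgeR adjusted p = 0.00165).

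**Figure D4:**
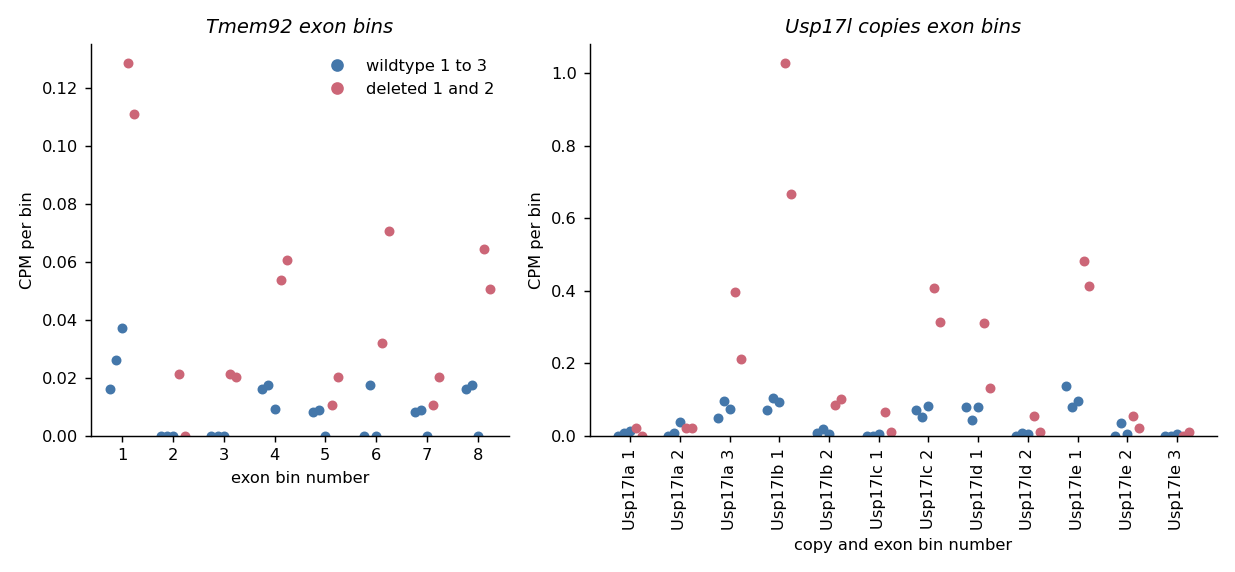
CPM of each exon bin (vertical axis) in each library for Tmem92 (left) and the Usp17l copies (right), wildtype in blue and deleted in red. The deleted points lie above the wildtype points in 7 of 8 Tmem92 bins, in bins 5 and 7 by less than the CPM of 1 count. Bin 1 of Usp17lb has the highest level.

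Zscan4, the zinc-finger family that shares the 2-cell state with these genes, had a summed log2 fold change of 2.50 ± 0.09 (SE, 3 copies), beside 2.38 for Usp17l. Counts of Usp17l divided by counts of Zscan4 were 0.166, 0.171 and 0.214 in wildtype 1, 2 and 3 against 0.211 and 0.132 in deleted 1 and 2. The groups overlapped, and the mean log2 ratio differed by −0.13 (exact two-sided permutation p = 0.8, smallest possible 0.1). Without deleted 2 this difference was 0.21. Zscan4 was at 13.9 and 14.4 CPM in deleted 1 and 2, so the 1.53-fold difference of Usp17l between these libraries was not seen in Zscan4. Tmem92 to Zscan4 ratios were 0.0255, 0.0362 and 0.0198 in wildtype against 0.0247 and 0.0245 in deleted cells, and overlapped as well. Usp17le to Zscan4 ratios did not overlap, at 0.0541, 0.0428 and 0.0456 in wildtype 1, 2 and 3 against 0.0386 and 0.0307 in deleted 1 and 2. Their mean log2 difference was −0.46 (exact two-sided permutation p = 0.1, the smallest possible), and against Zscan4c alone it was −0.50 with the same p. Ratios of the other single copies to Zscan4 were not computed. Usp17lb went the other way, at 11.1 and 7.67 times its wildtype mean in deleted 1 and 2, against 5.54 and 5.77 for Zscan4.

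**Figure D5:**
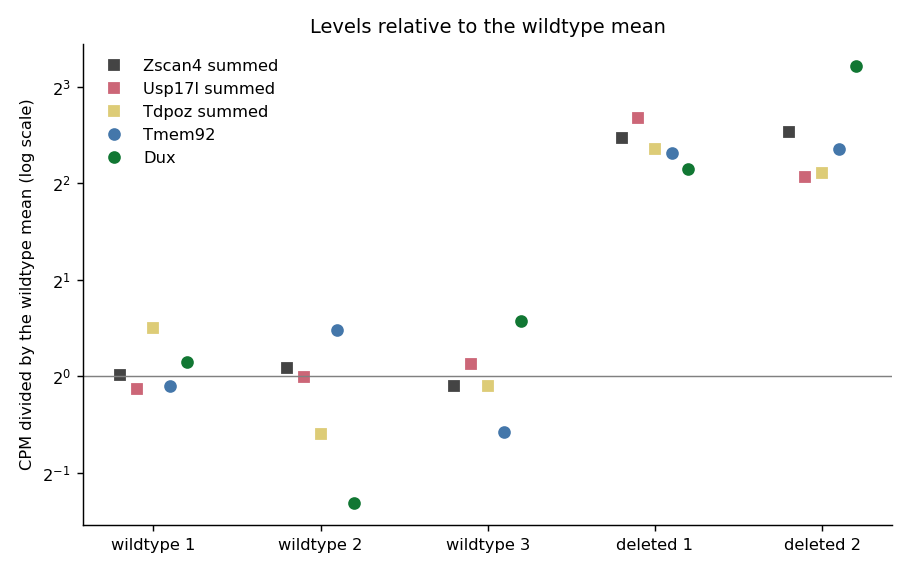
CPM divided by the wildtype mean (vertical axis, log scale) in each library, for summed families (squares) and single genes (circles). In the deleted libraries Zscan4 lies at 5.54 and 5.77, Usp17l at 6.39 and 4.17, and Dux at 4.43 and 9.28.

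Of the other 2-cell genes listed for this comparison, 14 of 25 had rows and 7 were tested. Of these, 6 were higher and none was lower, against 19.0% of tested symbols called higher. Beside the 3 Zscan4 copies the higher genes were BB287469, Pramef25 and Sp110, a nuclear body gene. BB287469 had a mean of 0.866 ± 0.147 CPM in wildtype (SD, n = 3) against 3.65 ± 0.162 CPM in deleted cells (SD, n = 2), a log2 fold change (± SE) of 2.10 ± 0.15 with adjusted p = 2.63e-05 by edgeR. Pramef25 and Sp110 had log2 fold changes of 1.86 ± 0.30 and 1.86 ± 0.33, and Gm12794 had 0.55 ± 0.67 (edgeR adjusted p = 0.00145, 0.00215 and 0.550). Zfp352, a zinc-finger gene of the same stage, did not pass filterByExpr, with 0, 1 and 4 counts in the wildtype libraries against 11 and 7 in the deleted ones. Tcstv1, Tcstv3, D5Ertd577e and Spz1 had 0 counts in each library. None of 28 listed regulators of Dux, such as Dppa2 and Trim28, and none of 8 listed SPOP and cullin-3 genes had a row under its symbol.

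Of 8 other Usp deubiquitinase genes, 1 was higher, 1 was lower and 6 did not pass, where 19.0% of tested symbols were higher and 13.1% lower. These counts are near the background. Usp29, an imprinted gene, had a log2 fold change of 0.77 ± 0.18 and Usp27x one of −0.67 ± 0.15, and Usp26 had 0.54 ± 0.20 without passing (edgeR adjusted p = 0.0101, 0.00783 and 0.0627). The Usp29 call ended without deleted 2 and the Usp27x call without deleted 1. Of the PRD-like homeobox genes, the class to which Dux belongs, 2 of 14 were tested. Otx1 was lower at −1.01 ± 0.34 and Obox6 had 0.12 ± 0.32 (edgeR adjusted p = 0.0427 and 0.797). The Otx1 call ended with DESeq2, with the replicate block and without any single library other than wildtype 3. Obox1, Obox2 and Obox5 had 0 counts.

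Of 47 named neighbours of these genes on the chromosome, 32 had rows, 23 of them with 0 counts in each library, and 1 was tested. The Usp17l genes lie in a block of olfactory receptor genes in the RefSeq table (GRCm38.p6, used for order only). Of 26 neighbouring olfactory receptor genes with rows, 22 had 0 counts in each library and 3 had 1 count. Olfr658, near Usp17lb and Usp17le, had 11, 3 and 4 counts in wildtype 1, 2 and 3 against 6 and 7 in deleted 1 and 2. Near Tmem92, the collagen gene Col1a1 had a log2 fold change (± SE) of 0.18 ± 0.16 with adjusted p = 0.390 by edgeR. Sgca, also near Tmem92, had 15 counts in wildtype and 6 in deleted cells. Scaled for depth, its means were 0.0320 CPM in wildtype and 0.0309 CPM in deleted cells, and the groups overlapped.

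Markers of other cells were followed in the same libraries, with rows for 11 of 14 oocyte, 6 of 10 male germ cell, 13 of 14 fibroblast and 8 of 10 blood genes. In the oocyte list 1 of 3 tested genes was higher and none lower: Bmp15, an oocyte growth factor gene, had a mean of 0.0777 ± 0.00329 CPM in wildtype (SD, n = 3) against 0.243 ± 0.0412 CPM in deleted cells (SD, n = 2), a log2 fold change (± SE) of 1.65 ± 0.32 with adjusted p = 0.00357 by edgeR. Bmp15 was below the filter level in each wildtype library and was tested through its deleted levels. Gdf9, its close relative, had −0.19 ± 0.40, Padi6 had 0.11 ± 0.43 (edgeR adjusted p = 0.746 and 0.861), and Oosp1 had 0 counts. The summed oocyte list was at 0.394 to 0.421 CPM in wildtype against 0.557 and 0.626 CPM in deleted cells. Of the male germ cell list both tested genes were higher, against the same 19.0% of tested symbols. Its sums were 1.16 to 1.51 CPM in wildtype and 2.18 to 2.34 CPM in deleted cells, while Prm2 had 0 counts. The 2 tested genes were Piwil1 at 0.83 ± 0.17 and Tex101 at 0.72 ± 0.20 (edgeR adjusted p = 0.00492 and 0.0198). Without deleted 2 neither was called, and 1 was called without each of wildtype 1, wildtype 2 and deleted 1.

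In the fibroblast list 5 of 8 were higher and none lower, against 19.0% of tested symbols called higher. By p these were led by Col1a2, Pdgfrb and Col6a1 at log2 fold changes of 0.92 ± 0.19, 0.49 ± 0.12 and 2.09 ± 0.52 (edgeR adjusted p = 0.00489, 0.00926 and 0.0118). The other 3 tested genes were not called. They were Col1a1, Fbn1 and Twist1 at 0.18 ± 0.16, 0.15 ± 0.17 and −0.17 ± 0.20 (edgeR adjusted p = 0.390, 0.520 and 0.543). Col6a1 was below the filter level in each wildtype library and was tested through its deleted levels. The most counted gene of the list, Fbn1, stood at 4.69 to 6.90 CPM in wildtype against 6.22 and 6.13 CPM in deleted 1 and 2, with overlapping groups. Sums, which include Fbn1, were 10.05 to 13.2 CPM in wildtype against 14.2 and 14.4 CPM in deleted cells, with Col3a1 at 12 counts and Lum at 1 in all. Without deleted 2 only 1 of these was called, without deleted 1 only 2, and 3 without wildtype 1 or wildtype 2. In the blood list 2 of 4 were called lower and none higher, against 13.1% of tested symbols called lower. These were Itgam at −0.52 ± 0.10 and Tal1 at −0.52 ± 0.13 (edgeR adjusted p = 0.00357 and 0.0114). Cd79a at −0.41 ± 0.15 was not called (edgeR adjusted p = 0.0513). Gata1 went the other way at 0.45 ± 0.17 and was not called (edgeR adjusted p = 0.0619). Both deleted libraries of Gata1 lay above all its wildtype libraries. Hbb-b1 had 0 counts and Ptprc 13 in all. Without deleted 2 the list had 1 higher and 1 lower gene. Blood sums were 8.02 to 8.35 CPM in wildtype and 6.11 to 6.64 CPM in deleted cells. The part of these cell types in the levels of the 9 genes was not tested.

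Outside the 2-cell genes, the symbols whose pattern over the 5 libraries lay closest to that of summed Usp17l were Msln, Pnoc, Cdh17, Hsh2d and Krtdap. Likeness was the root mean square distance between centred log2 CPM over 5 libraries, among 3461 tested symbols with at least 50 counts, whose median distance was 1.15. Distances were 0.165 for Msln, which encodes the surface protein mesothelin, 0.189 for Pnoc, a neuropeptide precursor gene, and 0.190 for Cdh17, a cadherin gene. Hsh2d and Krtdap were at 0.226 and 0.279, Zscan4 summed at 0.258, Tmem92 at 0.389 and Dux at 0.591. Msln stood at 0.338, 0.394 and 0.347 CPM in wildtype 1, 2 and 3 against 1.97 and 1.72 CPM in deleted 1 and 2. The likeness is a description of 5 libraries, and it carries no test.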

How the data were processed

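Exon bin read counts for 5 libraries were used as the authors deposited them. The submitters' processing notes name STAR and mm9. The annotation, read length, strand setting and handling of reads matching several copies were not given in the sources used here. Per the labels' protocols, libraries were made with an NEBNext Ultra kit from Trizol-extracted RNA. Here bins were summed per gene, spike-in names were left out, and genes were kept by filterByExpr, scaled by TMM and tested across the whole table with edgeR 4.0.16 (robust quasi-likelihood F test, R 4.3.3). Adjusted p under 0.05 was the threshold. Levels are mean ± SD, and SE was the log2 fold change divided by the root of F. The rule for named genes took each member, up to 4 further 2-cell genes and up to 3 per other list by p, and 5 genes by likeness. Markers at or near 0, Zfp352, Olfr658, Sgca, Gata1, Fbn1 and Twist1 were named after their values were seen. DESeq2 1.42.0, other filters and scalings, single bins, omitted libraries and the replicate block were alternatives. The fit was tested on simulated data. The members and lists were chosen with earlier results of these data known. Sequences were compared with Biopython 1.88.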

Additional observations from a re-analysis of the deposited data

How the results depend on the processing

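Each of the 8 members tested kept its direction under the alternatives that gave it a value; Tdpoz4 had a value only with 10 counts over the libraries. With at least 10 counts required in every library, 2 members were left and 2 were called higher. With spike-in size factors, added after seeing the data, 6 members were called, with Usp17la at 1.50 and Usp17ld at 1.55 on the log2 scale not called, and the Zscan4 sum was 2.27. This scaling moved the median of all genes by −0.24. With 1 library left out, 5 to 8 members were called. Log2 fold changes ranged from 1.95 to 3.07 for Dux, 2.15 to 3.05 for Tdpoz3, 1.22 to 2.11 for Usp17la, 0.92 to 2.26 for Usp17ld and 2.04 to 2.64 for the Usp17l sum. The log2 Usp17l to Zscan4 difference ranged from −0.47 to 0.21. With a single deleted library, its spread was taken to be that of the wildtype group, and the cause of these changes was not tested. With 1 library left out, called list members ranged from 1 to 6 (fibroblast, higher), 0 to 2 (male germ cell, higher), 0 to 1 (blood, higher), 1 to 2 (blood, lower), 0 to 1 (other Usp, either direction) and 0 to 1 (PRD-like homeobox, lower). With all libraries, the last count was 0 with the DESeq2 test and 0 with the replicate block, and 3 blood genes were lower with DESeq2 size factors. The labels do not say that replicate numbers pair libraries, and deviations of same-numbered libraries correlated at 0.054 and −0.054. The deviations of the 2 deleted libraries from their mean mirror each other by construction, so these are not 2 separate checks. With the replicate block 8 members were called, at 3.06 for Dux and 2.45 for the Usp17l sum. Apart from 10 counts over the libraries, shares of all genes called under the alternatives are not given. Counts of members and list genes called there therefore have no background beside them. In all, 255 of 284 recomputed values kept their direction and side of the threshold or stayed within their range. That total includes counts that were 0 under every setting, such as those of called neighbours. It also takes the 6 members called with spike-in size factors as within range of 8. Depth limits Dux and the Tdpoz genes most, at 19 to 40 counts each.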
